A study of Mus musculus with 16 samples.

Results

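The miR-10 and miR-196 families, whose genes lie inside the Hox gene clusters, have 4 mature members on the array: mmu-miR-10a and mmu-miR-10b, and the pair mmu-miR-196a and mmu-miR-196b (the prefix mmu, for mouse, is left out from here on). They were taken by name from the 611 mouse miRNAs on the array, and all 4 are among the 235 mouse miRNAs that were tested. Expression was measured in primary mouse embryonic fibroblasts (MEFs, fibroblasts cultured from embryos) on 16 one-colour Agilent arrays. The 8 groups of 2 arrays were Ercc1-/- and WT MEFs, each at passage 7 (P7) and passage 3 (P3), and each grown in 20% or 3% O2. All cells had a mixed FVB/n and C57Bl/6 background. Ercc1-/- cells lack ERCC1, the partner of the XPF nuclease in DNA repair, and the methods name 2 independent cell lines per condition, so that genotype and cell line are told apart by 2 lines at most. The comparisons asked which of the 4 miRNAs differed with the loss of Ercc1 and which differed with passage.

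Hox genes encode transcription factors that give the cells of the embryo their position along the body axis, and fibroblasts in culture keep much of the Hox pattern of the place they came from. The miR-10 and miR-196 genes sit between or within Hox genes and are transcribed with them. Their products in turn repress Hox mRNAs: in mouse embryos miR-196 directs the cleavage of Hoxb8 mRNA, and in human cells miR-10b represses HOXD10.

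The mature sequences show how close the members of each family are, which bears on how well array probes can separate them. RefSeq (GRCm38.p6) held all 4 members. MiR-10a is encoded at chr11:96317186-96317208 on the plus strand, within the span of Hoxb3 and next to Hoxb4, and miR-10b at chr2:74726074-74726096 on the plus strand, within the spans of Hoxd3 and Hoxd4. MiR-196a has 2 genes, at chr11:96265187-96265208 between Hoxb13 and Hoxb9 and at chr15:102973365-102973386 between Hoxc10 and Hoxc9, both on the plus strand. MiR-196b is encoded at chr6:52230129-52230150 on the minus strand, between Hoxa9 and Hoxa10. Capitals mark the seed, bases 2 to 8, which pairs with target mRNAs:
miR-10a: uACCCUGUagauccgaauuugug
miR-10b: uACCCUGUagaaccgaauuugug
miR-196a: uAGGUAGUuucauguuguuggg
miR-196b: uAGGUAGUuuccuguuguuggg
Each pair shares its seed and differs by 1 base, counted from 1 at the 5′ end: U12A for miR-10b against miR-10a, and A12C for miR-196b against miR-196a. No other mature mouse miRNA of the RefSeq table held either seed.

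Values are log2 intensities after the arrays were scaled to an equal mean over the 57 miRNAs above background on every array, with a floor at a log2 of 1.50. A miRNA was above background on an array where at least 50% of the spots of 1 of its probes were marked so. The arrays differed widely in brightness, with 117 to 257 miRNAs above background and unscaled mean log2 intensities of 5.80 to 9.77. In each group the replicate 2 array, on the second slide, had the lower unscaled mean. It also had fewer miRNAs above background, except in Ercc1-/- P7 MEFs in 3% O2 (175, against 155 on replicate 1). Slide, scan and replicate number coincide. P3 and P7 arrays lay in different rows of each slide, and Ercc1-/- arrays in columns 3 and 4 and WT arrays in columns 1 and 2 of both, so that neither passage nor genotype can be told apart from the position on the slide. The Ercc1-/- P7 20% O2 replicate 2 array stood apart, with 117 miRNAs above background and a correlation of 0.488 with its replicate. All 7 fibroblast and mesenchymal marker miRNAs were above background in all 8 groups.

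MiR-196a and miR-196b were called by genotype: at P3 both read lower in Ercc1-/- MEFs than in WT MEFs, and they were near or at background on all Ercc1-/- arrays. MiR-10a and miR-10b were above background on all P3 arrays of both genotypes and were not called between genotypes. With passage, both miR-10 members were called lower at P7 in Ercc1-/- MEFs, miR-10a and miR-196b in WT MEFs, and all 4 members over both genotypes. All 4 members were among the tested miRNAs through P3 groups alone, where they were above background on both arrays. Oxygen gave no call for any of them. None of these calls made over both O2 levels was kept with another background correction (normexp), which adds a constant to every signal, or with the O2 levels averaged before the fit. In RNA from whole cultures, fewer cells with a miRNA and less of it per cell cannot be told apart.

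**Figure D1:**
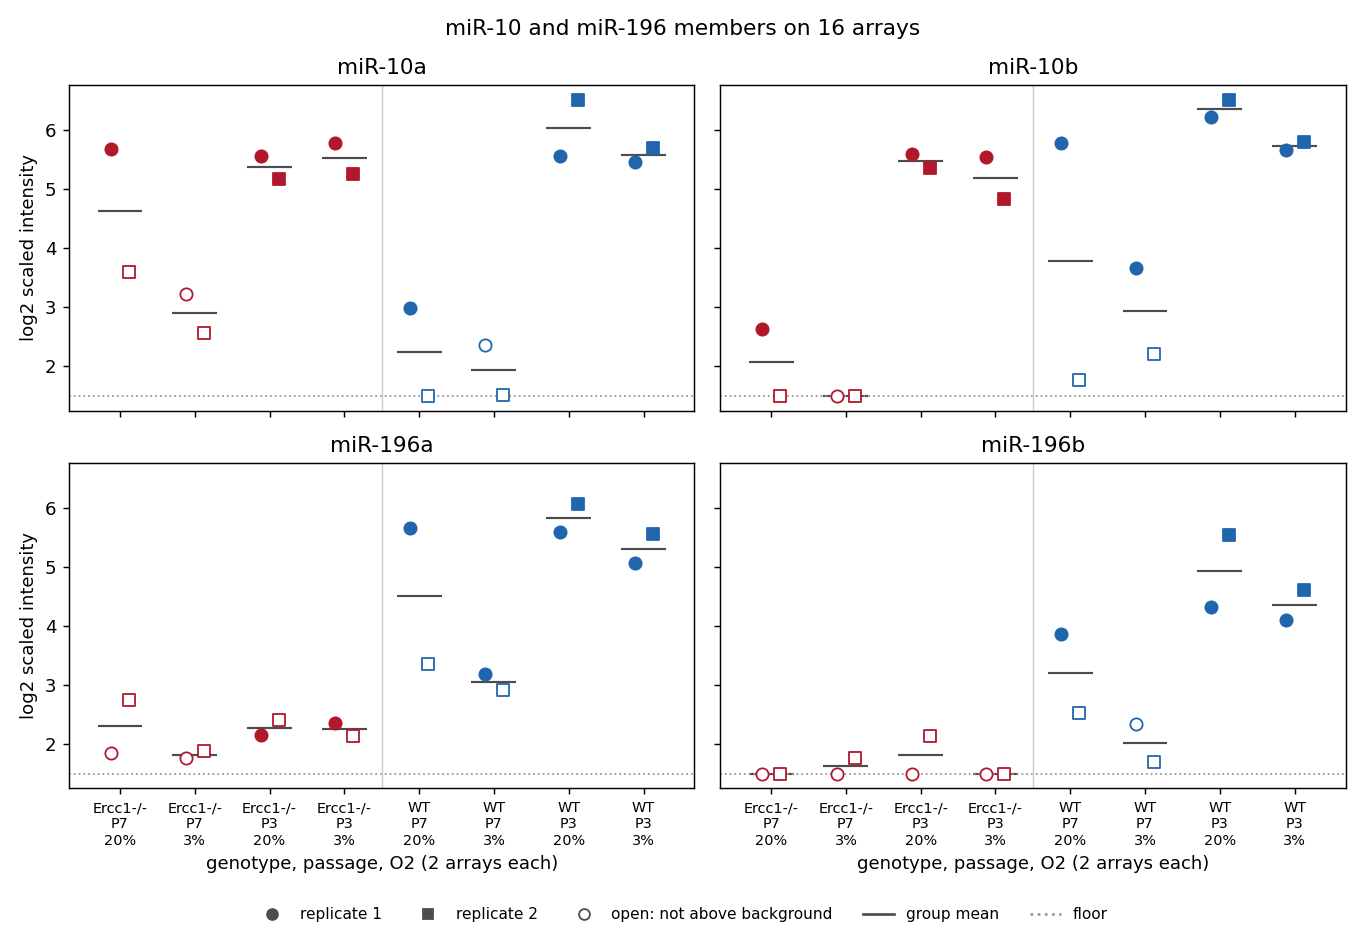
Log2 scaled intensity (vertical axis) of each member on each array, by genotype, passage and O2 (horizontal axis; Ercc1-/- in red, WT in blue). Circles are replicate 1, squares replicate 2, open symbols arrays where the miRNA was not above background, bars the group means and the dotted line the floor. MiR-196b is open on all 8 Ercc1-/- arrays, and all 4 members are filled on the 4 WT P3 arrays.

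MiR-196a, which is made from genes in the Hoxb and Hoxc clusters and represses Hox mRNAs, read 2.15 and 2.40 in Ercc1-/- P3 MEFs in 20% O2 and 2.36 and 2.14 in 3% O2, against 5.59 and 6.06 in WT P3 MEFs in 20% O2 and 5.06 and 5.56 in 3% O2. All 4 Ercc1-/- P3 arrays lay far below the 4 WT P3 arrays, and miR-196a was above background on 2 of the 4 Ercc1-/- arrays and on all 4 WT ones. MiR-196a was 9.87-fold lower in Ercc1-/- MEFs at P3 (log2 change -3.30, SE 0.49, limma adjusted p = 0.00295).

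MiR-196b, its relative from the Hoxa cluster, read 1.50 and 2.13 in Ercc1-/- P3 MEFs in 20% O2 and 1.50 and 1.50 in 3% O2, against 4.33 and 5.54 in WT P3 MEFs in 20% O2 and 4.10 and 4.61 in 3% O2. None of the 4 Ercc1-/- P3 arrays was above background, so the difference is a bound. MiR-196b was at least 7.67-fold lower in Ercc1-/- MEFs at P3 (limma adjusted p = 0.00295), where the Ercc1-/- arrays are set at the higher of their own value and the lowest signal above background. Of all 235 tested miRNAs, 1.28% were called lower in this comparison. Both members were among the tested miRNAs through the WT P3 groups alone, the groups in which they were above background on both arrays. For 5.53% of the tested miRNAs the Ercc1-/- P3 arrays all lay below the WT P3 arrays, as both did.

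The difference was present on each slide. The log2 change of miR-196a in Ercc1-/- against WT P3 MEFs was -3.07 among the replicate 1 arrays and -3.54 among the replicate 2 arrays. The changes of miR-196b were -2.72 and -3.26. With the slide as a block the adjusted p was 0.00377 for both, and 0.00907 with cell line as a random block, which takes each genotype and replicate number as 1 line. Averaging the 20% and 3% O2 arrays of each replicate before the fit, which leaves 2 values per genotype and passage, gave an adjusted p of 0.156 for both. Normexp gave changes of -1.18 for miR-196a and -0.85 for miR-196b, with an adjusted p of 0.947 for both. In 20% O2 alone the adjusted p of both was 0.0367, beside 0.851% of tested miRNAs called lower, and 0.0534 with the random cell line. In 3% O2 alone it was 0.11.

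Neither miR-10 member was called by genotype at P3. MiR-10a averaged 5.44 in Ercc1-/- P3 MEFs and 5.81 in WT P3 MEFs, a difference of -0.36 with a 95% interval of -1.55 to 0.82. MiR-10b averaged 5.34 in Ercc1-/- P3 MEFs and 6.05 in WT P3 MEFs, a difference of -0.71 with a 95% interval of -2.31 to 0.89. Both had an adjusted p of 1. The lower ends of the intervals are changes of over 2-fold downward. For miR-10b the 4 Ercc1-/- arrays lay below the 4 WT arrays, as they did for 5.53% of the tested miRNAs.

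Marker miRNAs of other cell types also read unlike between the genotypes at P3. The summed scaled intensity of 6 blood markers was 7.23 to 11.8 in Ercc1-/- P3 MEFs in 20% O2 and 11.4 to 25.7 in 3% O2, against 25.1 to 70.6 in WT P3 MEFs in 20% O2 and 26.1 to 31.4 in 3% O2. The 2 of them that were tested, miR-142-3p and miR-223, had changes of -1.67 (adjusted p = 0.602) and -1.27 (adjusted p = 1) at P3. The summed scaled intensity of 4 neural markers was 19.8 to 26.7 in Ercc1-/- P3 MEFs in 20% O2 and 29.5 to 44.3 in 3% O2, against 9.1 to 14.8 in WT P3 MEFs in 20% O2 and 13.5 to 17.1 in 3% O2. Of the 4 neural markers only 2, miR-129-5p and miR-129-3p, were above background on any array. Both were tested, and neither was called at P3 (median change 0.85). The sums of the neural markers were thus higher on all Ercc1-/- P3 arrays than on all WT ones. Those of the blood markers were lower in Ercc1-/- MEFs with some overlap. The part of either list in the miR-196 result was not tested. None of 7 epithelial markers was above background on any array.

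At P7 the miR-196 difference had the same sign on each slide but was not called. MiR-196a read 1.85 and 2.75 in Ercc1-/- P7 MEFs in 20% O2 and 1.76 and 1.88 in 3% O2, against 5.66 and 3.36 in WT P7 MEFs in 20% O2 and 3.19 and 2.92 in 3% O2. No Ercc1-/- P7 array and 2 of 4 WT P7 arrays were above background. The values did not overlap, as they did not in this direction for 0.426% of the tested miRNAs. The highest Ercc1-/- value, 2.75, lay below the lowest signal above background on its array, 3.82. It is thus an upper limit, and a separation from the WT values of 2.92 to 3.36 is not shown. The bound was at least 2.27-fold lower in Ercc1-/- P7 MEFs, but the adjusted p was 0.212.

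MiR-196b read 1.50 and 1.50 in Ercc1-/- P7 MEFs in 20% O2 and 1.50 and 1.77 in 3% O2, against 3.86 and 2.53 in WT P7 MEFs in 20% O2 and 2.33 and 1.70 in 3% O2. A single WT P7 array, the replicate 1 array in 20% O2, was above background, and the 2 sides overlapped. The change was -1.04 (adjusted p = 0.598), with no fold because the P7 arrays in 3% O2 were not above background in either genotype. None of the 4 members was among the 0.851% of tested miRNAs called between genotypes at P7.

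Over both passages, the 8 Ercc1-/- arrays of miR-196a ran between 1.76 and 2.75 and the 8 WT arrays between 2.92 and 6.06. MiR-196a was the single tested miRNA, 0.426% of 235, whose 8 Ercc1-/- arrays all lay below its 8 WT arrays. It was tested through the WT P3 groups alone, where it read high, and the 2.75 and 2.92 were both P7 values not above background. This separation thus does not show that miR-196a stands out. It averaged 2.16 in Ercc1-/- MEFs and was at least 4.74-fold lower than in WT MEFs (adjusted p = 0.00294). MiR-196b, which was above background on 0 of 8 Ercc1-/- and 5 of 8 WT arrays, had a change of -2.02 with an SE of 0.31 (adjusted p = 0.00389), beside 1.28% of tested miRNAs called lower. With the O2 levels averaged first, the adjusted p was 0.129 for miR-196a and 0.201 for miR-196b, and normexp gave -0.51 and -0.24 with an adjusted p of 0.977 for both. For miR-10a and miR-10b the genotype changes over both passages were 0.66 and -1.14, with adjusted p of 0.933 and 0.658.

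The miR-10 pair was lower at P7 in both genotypes, with calls for both members in Ercc1-/- MEFs and for miR-10a in WT MEFs. Both members were among the tested miRNAs through the P3 groups alone, the groups in which they were above background on both arrays. MiR-10a, made from the Hoxb cluster, read 5.67 and 3.59 in Ercc1-/- P7 MEFs in 20% O2 and 3.23 and 2.57 in 3% O2, against 5.56 and 5.17 in Ercc1-/- P3 MEFs in 20% O2 and 5.79 and 5.26 in 3% O2. The P7 arrays in 3% O2 lay well below all P3 arrays, while the replicate 1 array at P7 in 20% O2 was as high as the P3 arrays. With 1 of the 4 P7 arrays above background, no fold is given. MiR-10a was called lower at P7 in Ercc1-/- MEFs (log2 change -1.68, SE 0.54, adjusted p = 0.0288). Without single arrays its adjusted p ran between 0.00217 and 0.104, and it kept its call in 2 of 8 such fits. With the O2 levels averaged first the adjusted p was 0.116.

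In WT MEFs miR-10a read 2.99 and 1.50 at P7 in 20% O2 and 2.35 and 1.51 at P7 in 3% O2, against 5.56 and 6.51 at P3 in 20% O2 and 5.47 and 5.70 at P3 in 3% O2. All 4 WT P7 arrays lay below all 4 WT P3 arrays, as they did for 10.2% of the tested miRNAs, and 1 of the 4 P7 arrays was above background. MiR-10a was called lower at P7 in WT MEFs (log2 change -3.72, SE 0.54, adjusted p = 0.0047), with no fold given because most P7 arrays were not above background. It was called in all 8 fits that left out 1 array, but not with the O2 levels averaged first (adjusted p = 0.214) or with normexp (change -0.72, adjusted p = 0.743).

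MiR-10b, made from the Hoxd cluster, read 2.63 and 1.50 in Ercc1-/- P7 MEFs in 20% O2 and 1.50 and 1.50 in 3% O2, against 5.60 and 5.36 in Ercc1-/- P3 MEFs in 20% O2 and 5.55 and 4.82 in 3% O2. The 2 passages did not overlap, as they did not in this direction for 25.1% of the tested miRNAs, and 3 of the 4 P7 arrays were at the floor. MiR-10b was called lower at P7 in Ercc1-/- MEFs (log2 change -3.56, SE 0.73, adjusted p = 0.00999), with no fold given for that reason. Its change ran between -3.84 and -3.27 in the 8 fits that left out 1 array. The changes on the 2 slides were -3.51 and -3.60. With the O2 levels averaged first the adjusted p was 0.0915, and with normexp the change was 0.06 for miR-10b and 0.35 for miR-10a (adjusted p = 0.901 and 0.435).

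In WT MEFs miR-10b read 5.79 and 1.77 at P7 in 20% O2 and 3.67 and 2.20 at P7 in 3% O2, against 6.22 and 6.50 at P3 in 20% O2 and 5.66 and 5.80 at P3 in 3% O2. The replicate 1 array at P7 in 20% O2 lay among the P3 arrays and the other 3 below them. The change was -2.69 with an SE of 0.73 (adjusted p = 0.106), -1.21 among the replicate 1 arrays and -4.17 among the replicate 2 arrays. Leaving out the WT P7 20% O2 replicate 1 array gave a change of -3.70 and an adjusted p of 0.00232, and the slide as a block gave 0.0424. The adjusted p was 0.0543 with cell line as a random block and 0.558 with the O2 levels averaged first, and normexp gave a change of -0.53 (adjusted p = 0.852).

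The 2 genotypes had unlike backgrounds for passage. In Ercc1-/- MEFs 27.2% of the tested miRNAs were called lower at P7 and 50.2% in either direction. Calls were thus common there, and 2 of 4 members called lower, beside 27.2%, do not set the members apart. In WT MEFs 2.13% were called lower, and 2 of the 4 members, miR-10a and miR-196b, were among them. Both were tested only through P3 groups, where they read high, so their calls beside this share do not show that the members stand out. The median passage change of all tested miRNAs was -0.38 in Ercc1-/- MEFs and -0.34 in WT MEFs, and that of the 4 members -0.94 in Ercc1-/- MEFs and -2.37 in WT MEFs. The miR-196 pair was near the floor in Ercc1-/- MEFs at P3 already, so that these medians are no measure of a weaker passage change there.

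**Figure D2:**
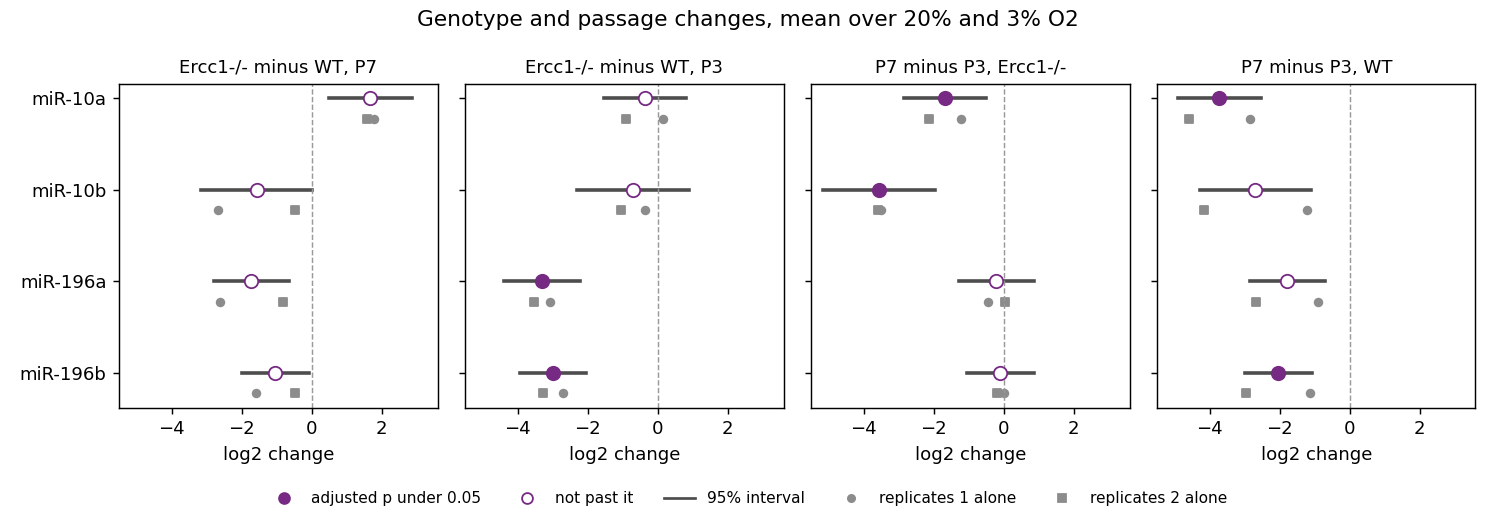
Log2 change of each member (horizontal axis) for genotype at P7 and P3 and for passage in Ercc1-/- and WT MEFs, averaged over both O2 levels, with 95% intervals. Filled symbols passed an adjusted p of 0.05, and small grey symbols are the changes among the replicate 1 (circles) and replicate 2 (squares) arrays alone. Both miR-196 members are filled for genotype at P3, both miR-10 members for passage in Ercc1-/- MEFs, and miR-10a and miR-196b for passage in WT MEFs.

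The miR-196 pair was near the floor at both passages in Ercc1-/- MEFs. There the passage change of miR-196a was -0.20 and that of miR-196b -0.09 (adjusted p = 0.739 and 0.858), with most arrays of both passages below background and no fold given. In WT MEFs, with the P7 and P3 values given above, miR-196a changed by -1.78 with an SE of 0.49 (adjusted p = 0.106). With 1 of the 4 WT P7 arrays above background, no fold is given for miR-196b. Its WT P7 and P3 arrays did not overlap, as for 10.2% of the tested miRNAs in this direction. MiR-196b, tested through the WT P3 groups alone, was called lower at P7 in WT MEFs (log2 change -2.04, SE 0.44, adjusted p = 0.0343), beside 2.13% of tested miRNAs. That call was kept in 2 of 8 fits that left out 1 array, with adjusted p up to 0.185, and was lost with the O2 levels averaged first (adjusted p = 0.55) and with normexp (change -0.14, adjusted p = 0.999).

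Averaged over both genotypes, all 4 members were called lower at P7, beside 32.3% of all tested miRNAs called lower. All 4 were tested through P3 groups alone, as no P7 group had any of them above background on both arrays. These calls thus come from members selected in the groups where they read high. MiR-10a changed by -2.70 (adjusted p = 0.00164) and miR-10b by -3.12 (adjusted p = 0.00314), with no fold given because most P7 arrays were not above background. MiR-196a changed by -0.99 (adjusted p = 0.0297) and miR-196b by -1.07 (adjusted p = 0.0145). The miR-196a call was kept in 7 of 16 fits that left out 1 array, and scaling by the 75th percentile of the 57 miRNAs used for scaling gave it an adjusted p of 0.112. Normexp gave changes of -0.18 for miR-10a, -0.24 for miR-10b, 0.37 for miR-196a and 0.47 for miR-196b, none of them called. With the O2 levels averaged first the adjusted p was 0.0614 for both miR-10 members, 0.111 for miR-196a and 0.0895 for miR-196b.

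Whether the passage change differed between the 2 genotypes was tested directly as the genotype difference at P7 minus that at P3. It was 2.04 for miR-10a (SE 0.76, adjusted p = 0.541), 1.95 for miR-196b (SE 0.62, adjusted p = 0.541), 1.58 for miR-196a (adjusted p = 0.769) and -0.87 for miR-10b (adjusted p = 0.771). No miRNA of the 235 was called by limma, a background of 0%, with 11 at an unadjusted p under 0.05. The unlike calls in the 2 genotypes are therefore not shown to differ.

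**Figure D3:**
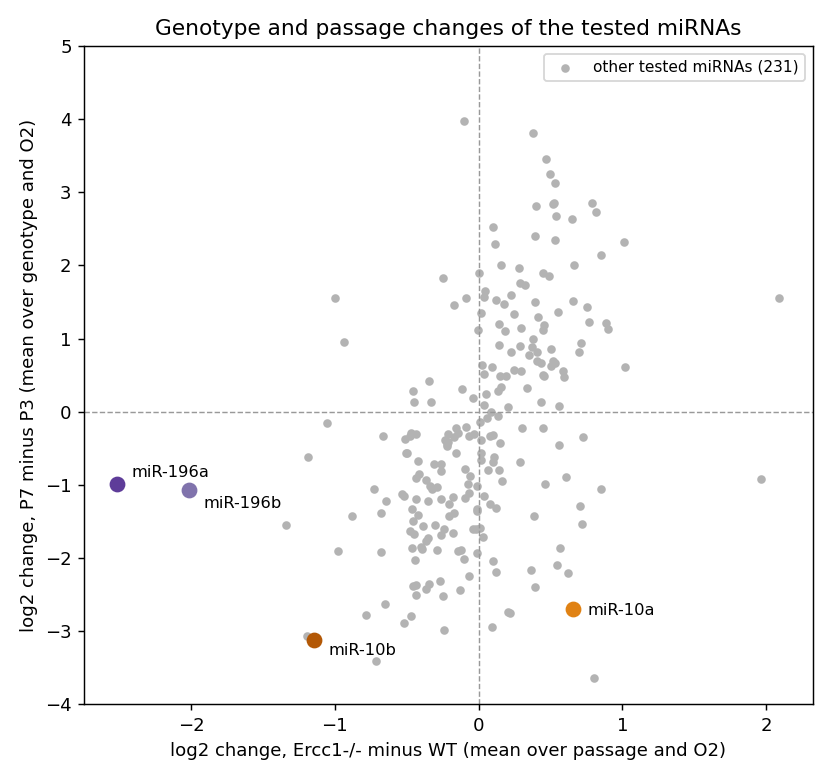
Log2 change with passage, P7 minus P3 averaged over genotype and O2 (vertical axis), against log2 change with genotype, Ercc1-/- minus WT averaged over passage and O2 (horizontal axis), for each tested miRNA. The miR-196 members lie farthest left, at -2.51 and -2.02, and the miR-10 members near the bottom, at -2.70 and -3.12.

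In WT MEFs, dim arrays were found at both passages. The replicate 2 arrays in 20% O2 were about equally dim, with 128 miRNAs above background and an unscaled mean of 7.08 at P7, and 132 and 6.98 at P3. None of the 4 members was above background on the WT P7 one, and all 4 were on the WT P3 one, at 5.54 to 6.51. On the 4 replicate 2 arrays at P7 no member was above background, while the lowest signal above background there lay between 2.39 and 3.82 on the log2 scale, so that P7 values on that slide are upper limits. The part of array brightness in the passage changes was not tested.

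The members of the miR-10 pair parted on the brighter P7 arrays in 20% O2. On the Ercc1-/- P7 20% O2 replicate 1 array the 2 probes of miR-10a read 5.02 and 6.12, with all spots above background, and those of miR-10b 1.50 and 3.39. On the WT P7 20% O2 replicate 1 array the probes of miR-10a read 2.13 and 3.52 and those of miR-10b 4.86 and 6.35. Each miRNA's probes moved together, and a high signal of either member came with a low signal of the other, which differs by 1 base.

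At P3 in 20% O2, both members were above background on the replicate 1 arrays of both genotypes. The labels do not say whether replicate 1 at P7 and at P3 is the same cell line. MiR-10a read 5.67 at P7 and 5.56 at P3 on the Ercc1-/- replicate 1 arrays, and 2.99 at P7 and 5.56 at P3 on the WT ones. MiR-10b read 2.63 at P7 and 5.60 at P3 on the Ercc1-/- replicate 1 arrays, and 5.79 at P7 and 6.22 at P3 on the WT ones. Each of these 4 P7 values rests on 1 array, and the replicate 2 arrays at P7 in 20% O2 had neither member above background.

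**Figure D4:**
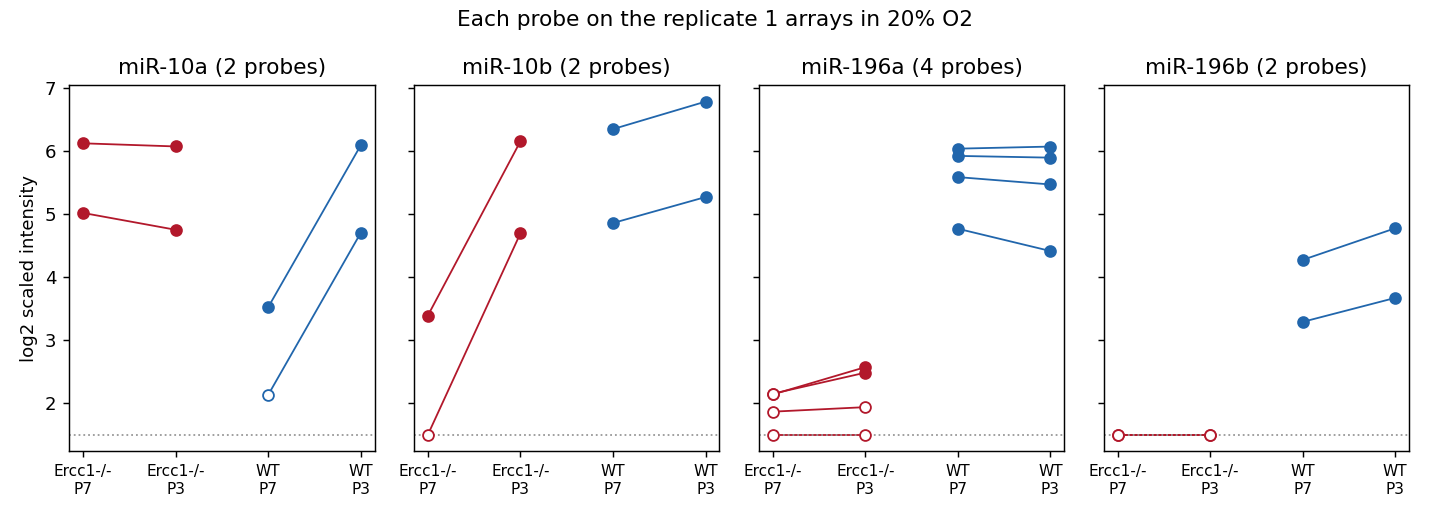
Log2 scaled intensity (vertical axis) of each probe of each member on the replicate 1 arrays in 20% O2, with lines joining P7 and P3 of a genotype (Ercc1-/- in red, WT in blue). Filled symbols are probes with at least 50% of spots above background. The miR-10a probes are level in Ercc1-/- MEFs and lower at P7 in WT MEFs, and the miR-10b probes show the reverse.

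Between genotypes at P7, miR-10a was the member with the opposite sign. It averaged 3.76 in Ercc1-/- P7 MEFs and 2.09 in WT P7 MEFs, a change of 1.68 (adjusted p = 0.368), 1.78 among the replicate 1 arrays and 1.57 among the replicate 2 arrays. The Ercc1-/- P7 arrays lay above the WT P7 arrays in 20% O2, as for 6.38% of the tested miRNAs, and in 3% O2, as for 14.9%, but no array in 3% O2 was above background. MiR-10b had a change of -1.58 in the same comparison (adjusted p = 0.598). Neural miR-129-5p and miR-129-3p also read higher in Ercc1-/- P7 MEFs. Of 4 neural markers only this pair was above background on any array. The summed scaled intensity of the 4 was 63.1 to 91.0 in Ercc1-/- P7 MEFs and 2.61 to 5.71 in WT P7 MEFs. Its part in the miR-10a values was not tested.

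No member was called with oxygen. The change in 20% against 3% O2, averaged over genotype and passage, was 0.59 for miR-10a, 0.58 for miR-10b, 0.62 for miR-196a and 0.49 for miR-196b, each with an adjusted p of 1, beside 0.851% of tested miRNAs called. The 95% intervals reached from -0.25 to 1.42 for miR-10a and from -0.55 to 1.71 for miR-10b, and from -0.14 to 1.38 for miR-196a and from -0.19 to 1.16 for miR-196b.

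In the order of group means, WT P3 MEFs in 20% O2 stood highest for all 4 members and WT P3 MEFs in 3% O2 came next. MiR-10a was lowest in WT P7 MEFs in 3% O2 (1.93 ± 0.59, SD, n = 2), and miR-10b in Ercc1-/- P7 MEFs in 3% O2, at the floor on both arrays. MiR-196a was lowest in Ercc1-/- P7 MEFs in 3% O2 (1.82 ± 0.08, SD, n = 2). The neighbours in these orders that lay more than 2 SE apart were Ercc1-/- P7 20% and 3% O2 for miR-10a (1.73 apart) and WT P7 20% and 3% O2 for miR-196a (1.45 apart), and in both the higher group rests on 1 array above background.

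The miR-196 members followed each other closely. Across the 16 arrays, which share slides, groups and brightness, the Pearson r of miR-196a with miR-196b was 0.964, the highest of all tested miRNAs for each. How far the probes of each also read the other, a difference of 1 base, was not tested. The next most alike was miR-675-3p, which is made from the H19 RNA (r = 0.734 for miR-196a and 0.812 for miR-196b), and over the 8 P3 arrays its r was 0.966 with miR-196a and 0.989 with miR-196b. MiR-10a and miR-10b had an r of 0.722 over 16 arrays, 0.775 over the 8 P3 arrays and 0.052 over the 8 P7 arrays. The tested miRNAs most like miR-10b were miR-218 (0.961), miR-872 (0.942) and miR-98 (0.942), and those most like miR-10a were miR-380-3p (0.872), miR-669f (0.862) and miR-434-3p (0.855).

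Other products of the same Hox clusters gave little signal. Of 7 names listed, 5 were on the array: miR-10a*, miR-10b* and miR-196a*, from the other arm of the same hairpins, and miR-615-3p and miR-615-5p, from a hairpin in the Hoxc cluster. MiR-615-3p was the single one above background on any array, and none was tested.

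The 3 close relatives of miR-10 outside the Hox clusters were all tested. MiR-99a, miR-99b and miR-100 have a seed that differs from that of miR-10 and is shared among them. The sequences show the shift:
miR-99a: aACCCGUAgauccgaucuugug
miR-99b: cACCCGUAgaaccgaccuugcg
miR-100: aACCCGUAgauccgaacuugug
With passage in Ercc1-/- MEFs, miR-99a (-2.63, adjusted p = 0.0059) and miR-100 (-1.94, adjusted p = 0.0211) were lower at P7, and miR-99b was higher (1.48, adjusted p = 0.0207). Such calls were common there, with 27.2% of the tested miRNAs called lower and 50.2% in either direction. In WT MEFs none of the 3 was called, at -0.72, -1.33 and 0.73 for miR-99a, miR-100 and miR-99b. None was called between genotypes at P3, where their median change was -0.17, beside changes of -0.36 for miR-10a and -0.71 for miR-10b and a median of 0 for all tested miRNAs.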

How the data were processed

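Total RNA of 16 MEF cultures was hybridised by the authors to Agilent mouse miRNA V2 arrays, 1 colour each. The deposited intensity values come from Agilent Feature Extraction, which subtracts the background from every spot. The file headers give version 10.7.1.1. They were not scaled between arrays, and the deposited series table of summed intensities was an alternative only.

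Control and outlier spots were left out of the 13715 spots per array, and the processed signals of the others were averaged per probe and then per miRNA. Arrays were scaled to equal mean log2 intensity over the 57 miRNAs above background on all of them. The methods normalise to the mean of each array, and the mean over all mouse miRNAs was an alternative here. The floor, a scaled intensity of 2.82, is the median of the lowest signals above background (1.02 to 18.0 by array). The 235 miRNAs above background on both arrays of a group were fitted with limma 3.58.1 (R 4.3.3, 8 residual and 3.58 prior degrees of freedom), 1 mean for each of 8 groups, with Benjamini-Hochberg adjustment over all 235 within each of 16 comparisons. Calls are at an adjusted p under 0.05. P-values measure the spread between 2 arrays a group. The scripts were tested on simulated data.

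The members, lists and tests were chosen with earlier results of these data known. Named miRNAs are the 4 members, the 3 most alike by Pearson r, other Hox cluster products, miR-99 and miR-100, and marker lists. Alternatives were other scales, floors, background corrections (normexp on median signals), probe summaries, blocks, the methods' t-test and leaving out each array.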

Additional observations from a re-analysis of the deposited data

How the results depend on the processing

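The counts of the 4 members called moved with the processing as follows, and the cause was not tested except where stated. For genotype at P3 in 20% O2, 2 became 0 on scaling by the 75th percentile or the mean of all miRNAs, with no scaling, normexp, the software's total signal, the brightest probe, the floor multiplied by 0.1 or 4, cell line as a random block, the arrays compared alone, and the methods' t-test after Benjamini-Hochberg adjustment, and leaving out 1 array gave 0 to 0. For genotype at P3 over both O2, 2 became 1 with the mean over all miRNAs and 0 with no scaling, normexp, the total signal and the O2 levels averaged first, which leaves fewer values. Over both passages, 2 became 0 with the last 4 settings, the floor multiplied by 4 and the methods' t-test.

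For passage in WT in 20% O2, 1 became 0 with either 75th percentile, the mean over all miRNAs, quantile normalization, no scaling, normexp, the total signal, either floor, the arrays compared alone and the methods' t-test. Over both O2, the WT count of 2 became 1 with either 75th percentile, quantile normalization, either floor and the arrays compared alone, and 0 with the mean over all miRNAs, no scaling, normexp, the total signal, the O2 average and the methods' t-test. In Ercc1-/- over both O2, 2 became 1 with the 75th percentile over miRNAs above background on all arrays, the floor multiplied by 0.1, the arrays compared alone and the methods' t-test, and 0 with no scaling, normexp, the total signal and the O2 average. Over both genotypes, 4 became 3 with the 75th percentile over miRNAs above background on all arrays, 2 with no scaling, the total signal and the methods' t-test, and 0 with normexp and the O2 average. Leaving out 1 array gave 3 to 4 for passage over both genotypes, 0 to 2 for passage in Ercc1-/- in 20% O2, 0 to 2 in WT in 20% O2, 1 to 2 in Ercc1-/- and 1 to 4 in WT over both O2, and 0 to 2 for genotype at P7.

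The slide differences of groups of the same passage correlated (median r of 0.607 at P3 and 0.811 at P7) but not those of P3 with P7 (0.034). Slide differences were thus shared within a passage only, though replicate number marks the slide at both passages. With the replicate block, passage in 3% O2 gave 2 in place of 0 in Ercc1-/- and 1 in place of 0 in WT, as did the random cell line, and the floor multiplied by 0.1 gave 1 in Ercc1-/-. No genotype call changed with the block.

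Signs turned as follows among the changes averaged over O2 and the single changes with an adjusted p under 0.1 in some setting. Normexp, which adds 50 to every signal before the arrays are scaled, gave for passage in Ercc1-/- 0.35 and 0.060 for miR-10a and miR-10b and 1.03 and 1.08 for the miR-196 pair, in 20% O2 0.58 (miR-10a) and in 3% O2 0.12 and 0.15 (miR-10a, miR-10b), for passage over both genotypes 0.37 and 0.47 (miR-196a, miR-196b), for genotype at P7 0.13 (miR-10b), 0.15 (miR-196a) and 0.37 (miR-196b), in 20% O2 0.10 (miR-196b), and for genotype by passage 0.59 (miR-10b). The total signal gave -0.45, -0.39, -0.13 and -0.11 for miR-10a (genotype at P7, genotype, genotype by passage, oxygen), 0.013 and 0.44 for miR-10b (genotype at P7 in 20% O2, genotype by passage) and 0.39 and -0.35 for miR-196b (genotype at P3 in 3% O2, oxygen). The 75th percentile over miRNAs on all arrays gave 0.19 and 0.0078 (passage in Ercc1-/-, miR-196a, miR-196b), no scaling 0.14 (genotype at P3, miR-10a), and the floor multiplied by 4 gave 0.10 (genotype by passage, miR-10b). Leaving out 1 array turned signs in these ranges: for passage in Ercc1-/-, -0.43 to 0.022 (miR-196a) and -0.25 to 0.068 (miR-196b), and -1.78 to 0.31 in 20% O2 (miR-10a), and for miR-10b -3.73 to 0.29 (genotype at P7 in 20% O2) and -1.87 to 0.14 (genotype by passage). Of these 1244 values of single members, 31 turned sign, 127 lost a call, 17 gained one and 1069 kept sign and call. Of 300 values of the other 15 single changes, 26 turned sign, in 11 changes, and 0 were called in any setting.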

Other observations

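By the rule of the methods (their t-test at an unadjusted threshold with a change of at least 2-fold, run on these scaled values), miR-196a passed between genotypes at P3 in 20% O2, at P3 in 3% O2 and at P7 in 3% O2, with 5, 7 and 4 of 235 miRNAs passing. With passage in 3% O2, miR-10a passed in Ercc1-/- MEFs, with 21 miRNAs passing, and miR-196a and miR-196b passed in WT MEFs, with 13 passing. After Benjamini-Hochberg adjustment 0 miRNAs were left by that test in each of these single comparisons, where limma called 2 at P3 in 20% O2 and 0 in the others. With each array of both O2 levels taken as a separate value, miR-196a and miR-196b were among the 8 miRNAs left between genotypes at P3. That test does not allow for arrays of the same replicate in 20% and 3% O2. With the O2 levels averaged first, limma gave an adjusted p of 0.156 for both. Both members were tested through the WT P3 groups alone.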
